A study of Mus musculus with 6 samples.

Results

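Cell cycle and DNA replication genes were examined in cultured mouse cortical neurons, cells that have left the cell cycle. The 35 genes were taken by name from a list of cyclins, cyclin-dependent kinases, replication factors, enzymes of deoxynucleotide supply, mitotic regulators and 1 centriole gene, among 55385 genes in the count files. All 35 had an identifier, and 34 were among the 18132 genes with enough reads to be tested; the kinase gene Aurkb was the exception. RNA came from primary neurons of the brain cortex of embryos at embryonic day 18, kept in vitro for 16 days. Strand-specific libraries were made from total RNA after depletion of ribosomal RNA. By their labels, the 3 Activated libraries came from neurons exposed to KCl for 5 minutes, washed, and left for 30 minutes before harvest, and the 3 Control libraries from neurons without KCl. The levels of activity-induced genes, given below, go against these labels. Every culture in both groups had received AraC (cytarabine), which blocks DNA synthesis and so acts against dividing cells, at 2.5 uM for 24 hours from day 2. The KCl concentration is given as 50 mM in one label and 50 uM in another. Strain, sex and the number of embryos are not stated in the labels, nor is it stated whether replicates were separate cultures. The p-values therefore reflect the spread among these 6 libraries, which may be technical.

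The cell cycle runs through a growth phase (G1), DNA synthesis (S), a second gap (G2) and mitosis (M). D-type cyclins with the kinases CDK4 and CDK6 open the way out of G1 by phosphorylating the retinoblastoma protein, which frees E2F factors to switch on the genes of S phase. Cyclins E and A with CDK2 then drive replication, and B-type cyclins with CDK1 drive mitosis. Neurons are postmitotic, and most of these genes are silenced in them, but D-type cyclins, PCNA and several MCM proteins are also found outside dividing cells. In a cortical culture, dividing cells are mostly glia and their progenitors.

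Gene reads on the library's own strand numbered 17752711 to 32740171 in libraries labelled Activated and 22994946 to 32919975 in libraries labelled Control. Genes that neurons switch on with activity were lower in the libraries labelled Activated. Arc had 46.3, 48.4 and 52.1 CPM (gene reads scaled to a common library size, with TMM factors) there, against 180, 186 and 163 CPM in libraries labelled Control, and Fosb, Egr2 and Npas4 likewise did not overlap between groups. These values are opposite in direction to the labelled treatment. Whether the labels of the 2 groups were exchanged was not tested; if they were, every direction below turns round with respect to KCl. The groups are therefore called by their labels only. Mitochondrial genes took 21.3 to 25.0% of gene reads in libraries labelled Activated and 14.7 to 17.1% in libraries labelled Control. Cell type markers moved as well. Of 22 neuron markers tested, 1 was higher and 15 were lower in the libraries labelled Activated, with summed levels of 5189 to 5740 CPM against 6134 to 6375 CPM in libraries labelled Control. Of 15 astrocyte markers tested, 13 were higher and 0 lower, with sums of 1925 to 2333 CPM in libraries labelled Activated, against 1461 to 1499 CPM in libraries labelled Control. The corresponding counts of higher and lower genes were 4 and 0 of 8 oligodendrocyte lineage markers, 8 and 0 of 13 microglia markers, and 9 and 0 of 13 endothelial, mural and fibroblast markers. Summed levels in libraries labelled Activated were 79.2 to 90.7, 74.2 to 139 and 374 to 438 CPM for these 3 lists in turn, against 60.5 to 65.8, 62.1 to 83.7 and 237 to 268 CPM in libraries labelled Control. The microglia count was 4 without Control replicate 1, 5 without Activated replicate 2, and 1 without Control replicate 3, without Activated replicate 3 or with the replicate block. On average, 6 of 15 oligodendrocyte lineage markers, 0 of 15 microglia markers and 3 of 17 endothelial, mural and fibroblast markers were below 0.1 CPM. Gpr17 had no read in any library, and Sox10, Mog, Mobp, Cldn5 and Cdh5 were near 0. The microglia genes P2ry12 and Tmem119 had too few reads to be tested. Their means were 0.21 and 0.15 CPM in libraries labelled Activated, against 0.095 and 0.12 CPM in libraries labelled Control. Other markers of the same lists were plainly present: means in libraries labelled Activated and in those labelled Control were 31.5 and 21.4 CPM for Olig1, 14.1 and 14.1 CPM for Mbp, 8.87 and 5.49 CPM for Flt1, and 11.0 and 7.22 CPM for the microglia gene C1qa. Of 12 markers of radial glia and intermediate progenitors, which are the dividing cells of embryonic cortex, 6 were higher and 1 lower, with sums of 721 to 753 CPM in libraries labelled Activated, against 482 to 518 CPM in libraries labelled Control. Sox9, which was higher, counts in both this list and the astrocyte list. Cspg4, also higher, counts in both the oligodendrocyte lineage list and the endothelial, mural and fibroblast list. Nes and Vim, intermediate filament genes that astrocytes also use, had log2 fold changes of 0.57 and 0.70. Pax6 was higher (0.62, but not without Control replicate 2 at 0.53 or Activated replicate 1 at 0.49) and Eomes, a factor of intermediate progenitors, was lower (−0.81). In bulk samples, fewer cells of a type and less RNA per cell cannot be told apart, and the part of these shifts in the results below was not tested.

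Most cell cycle genes stood at low levels in both groups, while Ccnd1, Ccnd2, Cdk4 and Pcna lay above the median of all genes tested. Divided by exon length, the mean level over the 6 libraries was below 1 CPM per kb for 26 of 35 genes (74.3%), against 27.7% of all genes tested. The median level was 0.366 CPM per kb, against 2.95 CPM per kb for all genes tested. At the top of the order stood Ccnd2 (48.6 CPM per kb) and Ccnd1 (46.8), followed by Cdk4 (7.13), Pcna (5.86), Ccne1 (2.74), Mcm4 (2.15), Mcm7 (1.33), Mcm6 (1.19) and Rrm1 (1.09). At the bottom were Cdc6 (0.0867), Bub1 (0.0962), Aurkb (0.0965), Cdk2 (0.101) and Cdk1 (0.120). Ccnd1 and Ccnd2 together made up 86.6 to 88.2% of the summed CPM of all 35 genes in libraries labelled Activated and 81.5 to 82.8% in libraries labelled Control. The other 33 genes summed to 121, 107 and 115 CPM in libraries labelled Activated, against 126, 118 and 116 CPM in libraries labelled Control, and these sums overlapped.

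**Figure D1:**
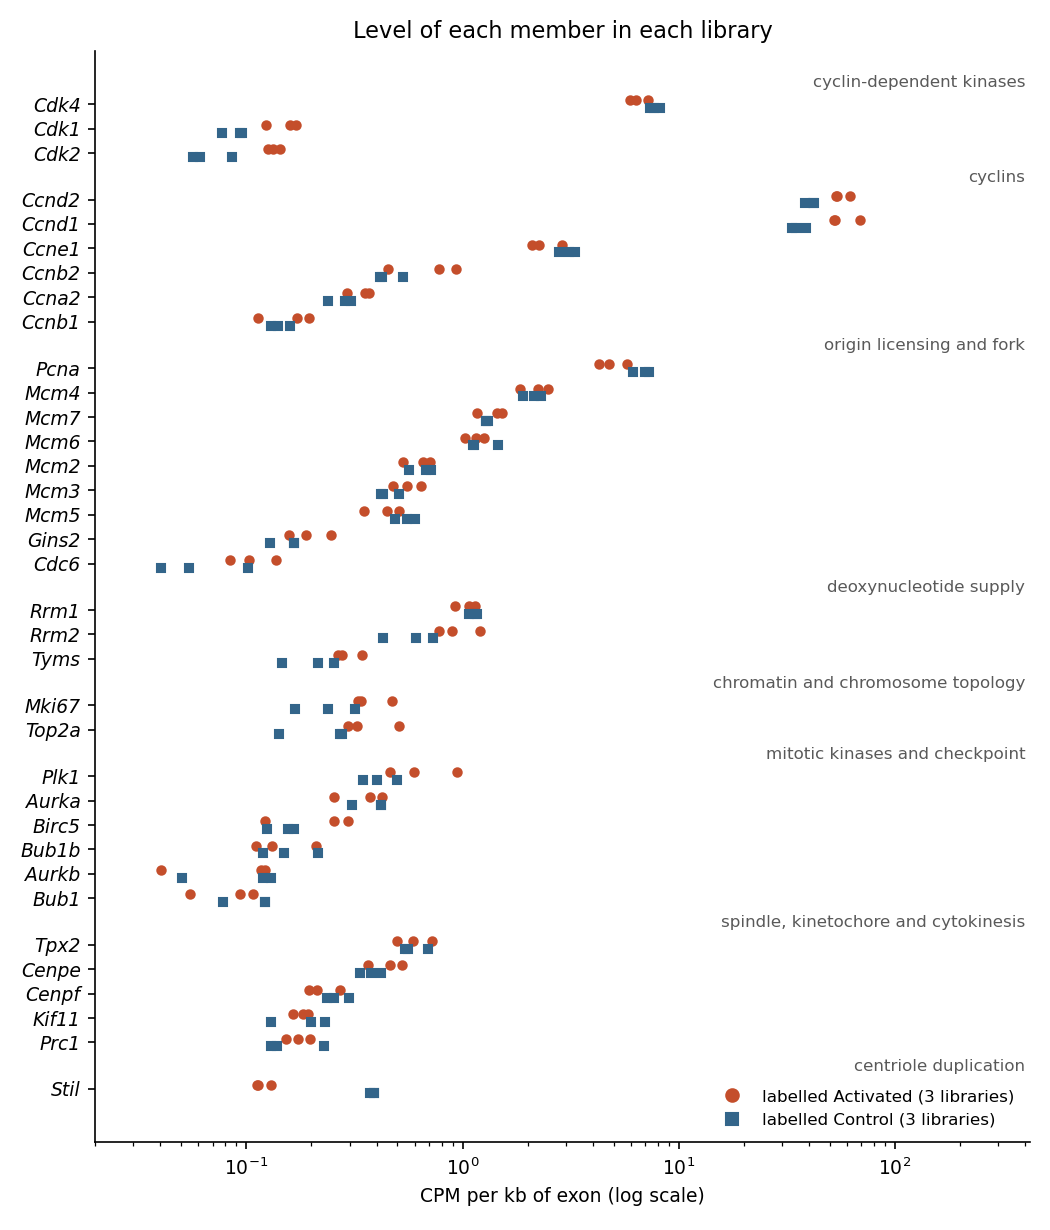
Level of each of the 35 genes in CPM per kb of exon (log axis), one row per gene and grouped by role, with circles for the 3 libraries labelled Activated and squares for the 3 labelled Control. Ccnd1 and Ccnd2 lie far to the right of the others, 26 genes lie below 1 CPM per kb on average, and the Stil symbols of the 2 groups are well apart.

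With an adjusted p below 0.05 as the threshold (quasi-likelihood test of edgeR, Benjamini-Hochberg adjustment over all genes tested), 5 of the 34 genes stood higher in libraries labelled Activated, 3 stood lower, and 26 did not pass. These are 14.7% and 8.82% of the genes. Among all tested genes 36.8% passed, 16.2% as higher and 20.6% as lower. The share called was thus near the background for higher genes and below it for lower genes. This background was not matched for level, and most of the 34 genes stood far below the median tested gene. The median log2 fold change (libraries labelled Activated over those labelled Control) was 0.14, against 0.04 for all genes tested. The groups did not overlap for 11 of the 34 genes (32.4%), against 49.0% of all genes tested. Higher genes were Ccnd1, Ccnd2, Cdk2, Rrm2 and Mki67; lower genes were Stil, Pcna and Cdk4. The 26 that did not pass had log2 fold changes from −0.36 to 0.73, with standard errors of 0.10 to 0.40. The count of higher genes was 2 without Control replicate 2, 3 without Control replicate 3 or Activated replicate 1, and 8 without Activated replicate 3. Scaling the libraries to equal neuron marker levels moved the median of all tested genes to 0.445, and with it 19 genes were higher and 1, Stil, was lower, around a median of 0.545.

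**Figure D2:**
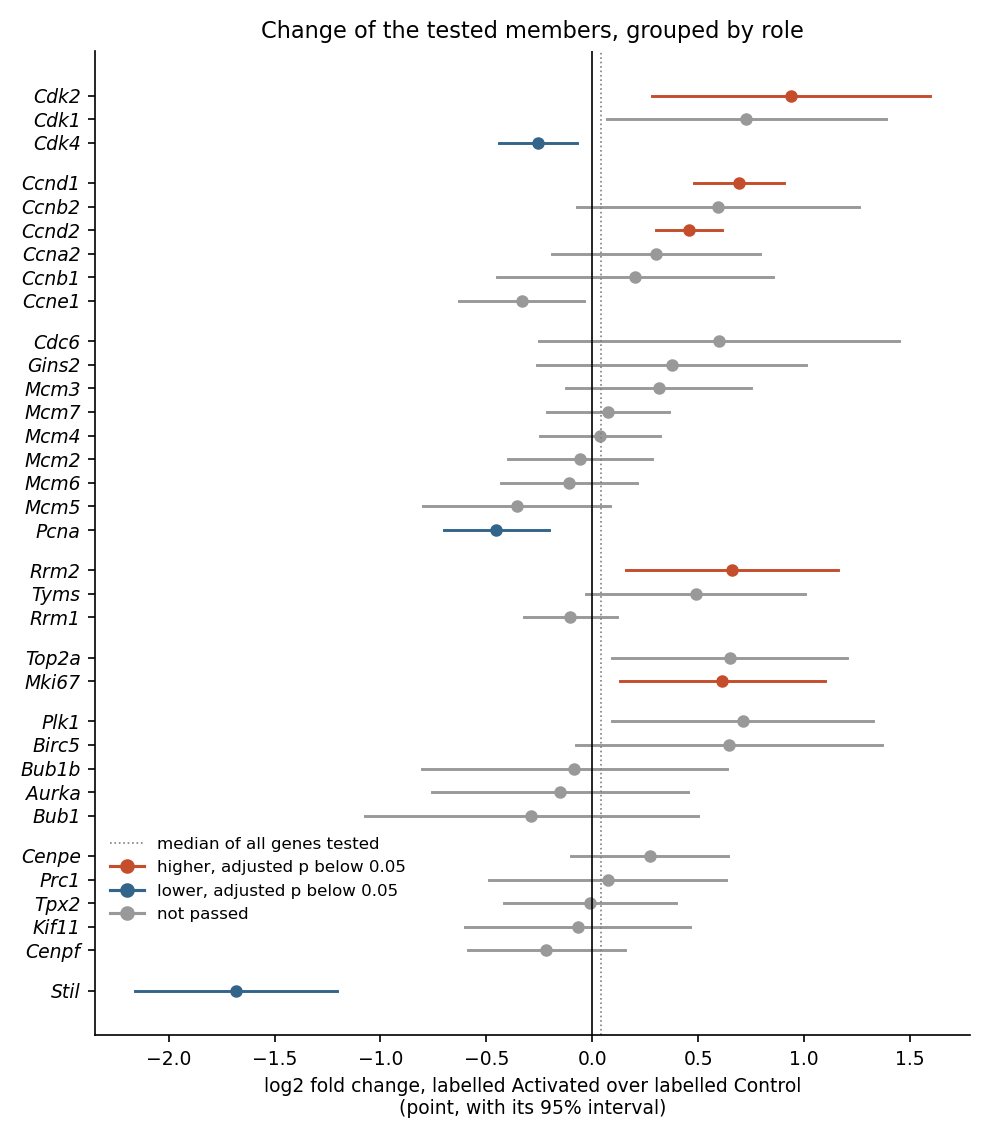
Log2 fold change of the 34 tested genes (libraries labelled Activated over those labelled Control) with 95% intervals from the edgeR fit, grouped by role as in the plot of levels; colour marks genes past an adjusted p of 0.05. Stil lies alone at −1.68, the D-type cyclins have the narrow intervals above 0, and most intervals cover 0.

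The D-type cyclins were higher in the libraries labelled Activated. Ccnd1 (chromosome 7, 144929931 to 144939925, mm10), which encodes cyclin D1, had 326, 248 and 245 CPM in libraries labelled Activated, against 183, 158 and 164 CPM in libraries labelled Control. Every library labelled Activated lay above every library labelled Control, with Activated replicate 1 the highest. The log2 fold change was 0.69 ± 0.10 (SE, with adjusted p = 0.000161 in edgeR). Ccnd2 (chromosome 6, 127125162 to 127152193), which encodes cyclin D2, had 580, 507 and 500 CPM in libraries labelled Activated, against 395, 363 and 398 CPM in libraries labelled Control, again without overlap. Its log2 fold change was 0.46 ± 0.07 (SE, with adjusted p = 0.000315 in edgeR). The ratio of Ccnd1 to Ccnd2 CPM was 0.562, 0.488 and 0.490 in libraries labelled Activated, against 0.463, 0.435 and 0.414 in libraries labelled Control. Both cyclins passed in all 15 alternatives, with log2 fold changes of 0.55 to 1.09 for Ccnd1 and 0.39 to 0.86 for Ccnd2. Exons of a gene on the other strand overlap both, yet reads on that strand made up 1.59% of both strands for Ccnd1 and 0.145% for Ccnd2. The astrocyte markers described above were higher in the same libraries.

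The catalytic partners of the cyclins went different ways. Cdk4, the partner of D-type cyclins, had 23.5, 19.4 and 20.5 CPM in libraries labelled Activated, against 25.1, 26.6 and 23.9 CPM in libraries labelled Control. All 3 libraries labelled Activated lay below those labelled Control, by a small margin, and the log2 fold change was −0.26 ± 0.09 (SE, with adjusted p = 0.0297 in edgeR). Leaving out Control replicate 1 (−0.25), Control replicate 2 (−0.21) or Activated replicate 2 (−0.20) ended the call. So did the replicate number as a block (−0.26; edgeR adjusted p = 0.0617) and a filter of 1 CPM in 3 libraries (−0.22; adjusted p = 0.0506). Under the neuron marker scaling its value was 0.14. Cdk4 shares 641 exon bases with Tspan31 on the other strand, where 53.6% of the reads over its exons lay. Cdk2, the partner of cyclins E and A, had 0.893, 0.826 and 0.784 CPM in libraries labelled Activated, against 0.353, 0.381 and 0.532 CPM in libraries labelled Control, which correspond to 15, 23 and 25 reads in those labelled Activated and 10, 9 and 18 reads in those labelled Control. The log2 fold change was 0.94 ± 0.31 (SE, with adjusted p = 0.0269 in edgeR), and the groups did not overlap. Leaving out any of Control replicate 1 (0.83), Control replicate 2 (0.89), Activated replicate 1 (0.90) and Activated replicate 2 (0.94) ended the call, as did the block (0.95; adjusted p = 0.0589) and unstranded counts (0.73; adjusted p = 0.0738). Cdk2 shares 34 exon bases with Pmel on the other strand, where 13.8% of the reads over its exons lay. Cdk1, the mitotic kinase, did not pass at 0.73 ± 0.31 (SE, with adjusted p = 0.0780 in edgeR), although its 0.833, 0.611 and 0.784 CPM in libraries labelled Activated lay above the 0.459, 0.381 and 0.473 CPM in libraries labelled Control.

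The cyclins of later phases did not pass. Ccne1, the G1/S cyclin E1, had 6.01, 5.60 and 7.65 CPM in libraries labelled Activated, against 8.27, 8.85 and 7.42 CPM in libraries labelled Control, a log2 fold change of −0.33 ± 0.14 (SE, with adjusted p = 0.0720 in edgeR). Activated replicate 3 lay within the range of the libraries labelled Control, and without it Ccne1 was called lower (−0.50; adjusted p = 0.00763). Ccna2, the cyclin of S and G2 phase, and the mitotic cyclins Ccnb1 and Ccnb2 had log2 fold changes of 0.30, 0.20 and 0.60, with 95% intervals of −0.19 to 0.79, −0.45 to 0.85 and −0.07 to 1.26. Ccnb2 was called higher without Activated replicate 3 (0.87; edgeR adjusted p = 0.0292). Over the exons of Ccna2, which share 510 bases with Exosc9, 76.8% of reads lay on the other strand.

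Other cyclins, kinases and inhibitors of the G1 step moved in both directions. Of 22 genes tested of 23 listed, 4 were higher and 4 lower. That is 18.2% each, near the 16.2% higher and 20.6% lower of all genes tested. Cdk6, the second kinase partner of D-type cyclins, had 36.4, 33.3 and 34.1 CPM in libraries labelled Activated, against 23.1, 20.9 and 23.7 CPM in libraries labelled Control (log2 fold change 0.61 ± 0.08, SE, with adjusted p = 6.72e-05 in edgeR). Cyclin D3, Ccnd3, picked out after its values were seen, was higher at 0.38. The inhibitor genes that passed were split. Cdkn1b, which encodes p27, was lower at 32.3, 29.0 and 36.0 CPM in libraries labelled Activated, against 43.3, 44.1 and 45.2 CPM in libraries labelled Control (−0.45). Cdkn2d, which encodes the CDK4 and CDK6 inhibitor p19, was lower too, at 12.4, 12.5 and 15.3 CPM in libraries labelled Activated, against 20.3, 28.6 and 23.6 CPM in libraries labelled Control (−0.84). Its relative Cdkn2b, which encodes p15, was higher at 6.61, 6.47 and 7.87 CPM in libraries labelled Activated, against 3.78, 5.00 and 3.78 CPM in libraries labelled Control (0.75). None of these 5 genes had overlapping groups, and of the 5 only Cdkn1b lost its call in an alternative, the neuron marker scaling (−0.05). A further inhibitor gene, Cdkn1c, picked out after its values were seen, was higher at 0.93 (edgeR adjusted p = 0.00604), also without overlap. Cdkn1a, Cdkn2a, Cdkn2c and Cdkn3 of the same list did not pass (0.08, 0.50, 0.67 and −0.93). They too were picked out after their values were seen. Cdkn1a had means of 64.0 CPM in libraries labelled Activated and 60.9 CPM in libraries labelled Control.

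**Figure D3:**
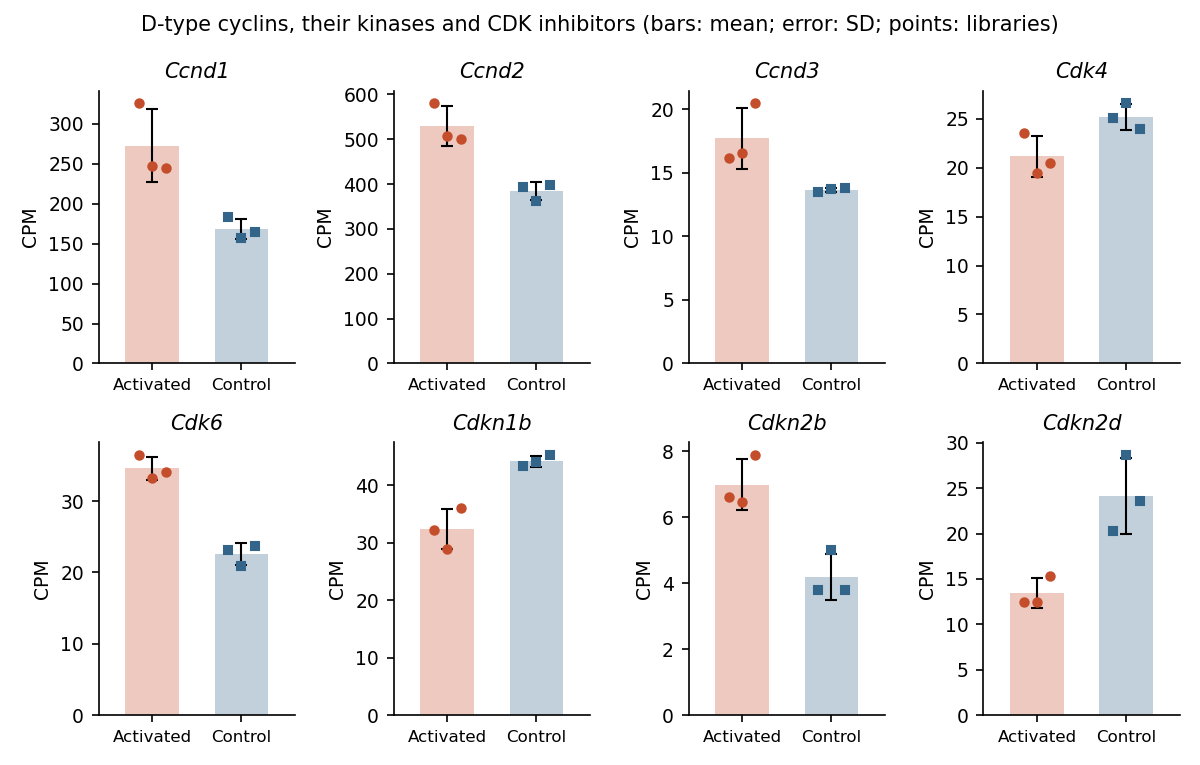
CPM of the D-type cyclins, their kinases and 3 CDK inhibitors in libraries labelled Activated (left of each panel) and labelled Control (right), with each library as a point, the mean of 3 as a bar from 0 and the SD as the error bar. Ccnd1, Ccnd2, Ccnd3, Cdk6 and Cdkn2b are higher, and Cdk4, Cdkn1b and Cdkn2d lower, in the libraries labelled Activated.

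Of the replication genes, Pcna alone passed. Pcna (chromosome 2, 132249162 to 132253314) encodes the sliding clamp that holds DNA polymerase on its template and also serves DNA repair. It had 11.4, 10.3 and 13.9 CPM in libraries labelled Activated, against 17.4, 16.7 and 14.8 CPM in libraries labelled Control, with no overlap. The log2 fold change was −0.45 ± 0.12 (SE, with adjusted p = 0.00749 in edgeR). It passed in 14 of 15 alternatives, and under the neuron marker scaling it was −0.06. The pseudogene Pcna-ps2 held 34, 27 and 55 reads in libraries labelled Activated, against 70, 54 and 86 in libraries labelled Control, and reads may be divided between gene and pseudogene.

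The MCM genes encode the subunits of the ring-shaped helicase that unwinds DNA at origins, and they act as 1 complex. Summed over Mcm2 to Mcm7, they had 30.5, 25.3 and 26.8 CPM in libraries labelled Activated, against 28.6, 27.7 and 26.3 CPM in libraries labelled Control, so the groups overlapped. No MCM gene passed: log2 fold changes were −0.06 for Mcm2, 0.31 for Mcm3, 0.04 for Mcm4, −0.36 for Mcm5, −0.11 for Mcm6 and 0.08 for Mcm7. Their 95% intervals reached from −0.80 for Mcm5 to 0.75 for Mcm3, and that of Mcm4, −0.25 to 0.32, was the narrowest. The levels of the 6 subunits were unequal, from 0.492 CPM per kb for Mcm5 to 2.15 for Mcm4. Cdc6, which loads the MCM ring, had 5 to 18 reads in any library (0.60 ± 0.40, SE). Gins2, a subunit of the active helicase, had 13 to 32 reads (0.38 ± 0.30, SE), and 96.2% of reads over its exons lay on the other strand, where Gse1 shares 2758 bases. Of 34 further genes of origin licensing and the replication fork, all tested, 0 were higher and 5 lower. As shares these are 0% and 14.7%, against 16.2% and 20.6% of all genes tested. The lower ones were led by the licensing factor Cdt1 (−0.81), the single-strand binding proteins Rpa1 (−0.28) and Rpa2 (−0.43), and the flap nuclease Fen1 (−0.45). These calls were weakly held. The list had 1 lower gene when Control replicate 1, Control replicate 2 or Activated replicate 1 was left out, 2 without Activated replicate 2, and 3 with the replicate block, with DESeq2 or in unstranded counts. Without Control replicate 3, 1 gene was higher.

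Of the deoxynucleotide genes, Rrm2 was higher. Rrm2 encodes the S-phase subunit of ribonucleotide reductase, which makes the building blocks of DNA. It had 3.33, 2.48 and 2.16 CPM in libraries labelled Activated, against 2.01, 1.19 and 1.69 CPM in libraries labelled Control, with a small gap between groups. The log2 fold change was 0.66 ± 0.23 (SE, with adjusted p = 0.0393 in edgeR). Leaving out any of Control replicate 2 (0.51), Control replicate 3 (0.69), Activated replicate 1 (0.49) and Activated replicate 2 (0.69) ended the call, as did total counts only (0.59; adjusted p = 0.0597) and unstranded counts (0.57; adjusted p = 0.0709). Rrm1, the large subunit used in and out of S phase, had 11.8, 10.2 and 12.6 CPM in libraries labelled Activated, against 12.6, 12.8 and 11.9 CPM in libraries labelled Control (−0.10, 95% interval −0.32 to 0.12), and was called higher under the neuron marker scaling (0.29). Tyms, the thymidylate synthase gene, had 2.08, 1.62 and 1.69 CPM in libraries labelled Activated, against 1.55, 0.889 and 1.30 CPM in libraries labelled Control, and did not pass (0.49; edgeR adjusted p = 0.127) although its groups did not overlap. Of 15 further genes of DNA precursor synthesis tested of 16 listed, 2 were higher and 5 lower. The shares were 13.3% and 33.3%, against 16.2% and 20.6% of all genes tested. Higher genes numbered 1 when Control replicate 2, Control replicate 3 or Activated replicate 3 was left out. Named by smallest p, the lower ones were Nme1, a nucleoside diphosphate kinase (−0.67), Dut, which removes dUTP (−0.52), Impdh2 of guanine nucleotide synthesis (−0.42) and Rrm2b, the reductase subunit used outside S phase (−0.35).

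Mki67, which encodes the proliferation antigen Ki-67, was higher and Top2a, the topoisomerase that disentangles replicated chromosomes, did not pass. Mki67 had 4.76, 3.30 and 3.42 CPM in libraries labelled Activated, against 3.22, 1.69 and 2.39 CPM in libraries labelled Control. The lowest library labelled Activated lay just above the highest labelled Control, and the log2 fold change was 0.62 ± 0.23 (SE, with adjusted p = 0.0449 in edgeR). Leaving out any of Control replicate 2 (0.44), Control replicate 3 (0.61) and Activated replicate 1 (0.45) ended the call, as did total counts only (0.55; adjusted p = 0.0684). Top2a had 4.58, 2.66 and 2.92 CPM in libraries labelled Activated, against 2.44, 1.27 and 2.48 CPM in libraries labelled Control, also without overlap (0.65 ± 0.26, SE, with adjusted p = 0.0626 in edgeR). It was called higher without Activated replicate 2 (0.79) or Activated replicate 3 (0.73), with the replicate block (0.70; adjusted p = 0.0351) and with DESeq2 (0.68; adjusted p = 0.0474). Over the exons of Mki67, where no annotated exon lies on the other strand, 44.5% of reads were on that strand. In Mki67, Top2a, Rrm2 and Tyms alike, Activated replicate 1 was the highest library and Control replicate 2 the lowest. Over the 34 tested genes, 14 had their highest value in Activated replicate 1, the shallowest library, and 13 their lowest in Control replicate 2. No such tally was made over all genes tested. Their summed CPM was also highest in Activated replicate 1, at 1055000, against 972100 to 1026000 in the other libraries. At 0.381 CPM per kb in libraries labelled Activated and 0.242 in libraries labelled Control, Mki67 lay far below the median gene in both groups.

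The mitotic kinase, checkpoint, spindle and kinetochore genes among the 34 tested did not pass. Plk1, a kinase that acts from mitotic entry to cell division, had 1.01, 2.08 and 1.32 CPM in libraries labelled Activated, against 1.10, 0.762 and 0.887 CPM in libraries labelled Control (0.71 ± 0.29, SE, with adjusted p = 0.0661 in edgeR). It was called higher without Activated replicate 1 (0.87) or Activated replicate 3 (0.82). Birc5, or survivin, which works with Aurora B on chromosomes, had a log2 fold change of 0.65 with an interval of −0.08 to 1.37. The checkpoint kinase genes Bub1 and Bub1b and the spindle kinase gene Aurka had values of −0.29, −0.09 and −0.15. Aurkb, which encodes Aurora B, had 2, 10 and 11 reads in libraries labelled Activated, against 10, 9 and 5 reads in libraries labelled Control. The genes of spindle motors, kinetochores and cytokinesis showed no common direction: Cenpe (0.27), Prc1 (0.07), Tpx2 (−0.01), Kif11 (−0.07) and Cenpf (−0.22). Of 32 further genes of spindle, kinetochore and cytokinesis tested of 34 listed, 0 were higher and 2 lower. The shares were 0% and 6.25%, against 16.2% and 20.6% of all genes tested. The lower ones were Bub3, a checkpoint protein gene (−0.35), and Cenpa, the centromeric histone gene (−0.73). Cenpa no longer passed once Control replicate 2 (−0.64) or Activated replicate 2 (−0.61) was left out. Without Control replicate 2 the list had 1 lower gene, and without Control replicate 3 or Activated replicate 3 it had 1 higher.

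Stil, which earlier results of these data had singled out, had the largest change of the 34 genes. Its rank and p-value are therefore not independent of the way it was chosen. Stil (ENSMUSG00000028718.16, chromosome 4, 115000159 to 115043196, plus strand, mm10) encodes a centriole protein that, with PLK4 and SAS-6, starts the building of a new centriole once per cell cycle. It had 0.655, 0.647 and 0.753 CPM in libraries labelled Activated, against 2.26, 2.16 and 2.25 CPM in libraries labelled Control. The libraries within each group lay close together and the groups were far apart. In reads these are 11, 18 and 24 in libraries labelled Activated, against 64, 51 and 76 in libraries labelled Control. The log2 fold change was −1.68 ± 0.22 (SE, with adjusted p = 0.000106 in edgeR), a fold of 0.312, with a 95% interval of −2.16 to −1.20. It passed in all 15 alternatives, between −1.77 and −1.28. No annotated exon of another gene overlaps its exons, and 0.813% of the reads over them lay on the other strand.

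Of the genes beside Stil, Cmpk1 was lower and Tal1 did not pass. Cmpk1, a nucleotide kinase gene that lies 12917 bases away on the minus strand, had 40.0 ± 2.67 CPM in libraries labelled Activated and 60.7 ± 4.90 CPM in libraries labelled Control (SD, n = 3 each; log2 fold change −0.60 ± 0.08, SE, with adjusted p = 7.55e-05 in edgeR), and lost its call under the neuron marker scaling (−0.20). On the other side Tal1, a transcription factor gene of blood cell development 13229 bases away on the same strand as Stil, did not pass (−0.40 ± 0.25, SE, with adjusted p = 0.212 in edgeR). Of 19 further genes of centriole duplication and the centrosome, all tested, 5 were higher and 3 lower. The shares were 26.3% and 15.8%, against 16.2% and 20.6% of all genes tested. Log2 fold changes in this list ran from −0.36 to 0.74 around a median of 0.18. Without Control replicate 2 the count of higher genes was 3. The 4 with the smallest p were Cep120, a gene of centriole elongation (−0.32), Cdk5rap2 (0.45) and Cep192 (0.44), which build the matrix around centrioles, and Rttn, another centriole gene (0.62). Cep120 turned to 0.08 under the neuron marker scaling.

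**Figure D4:**
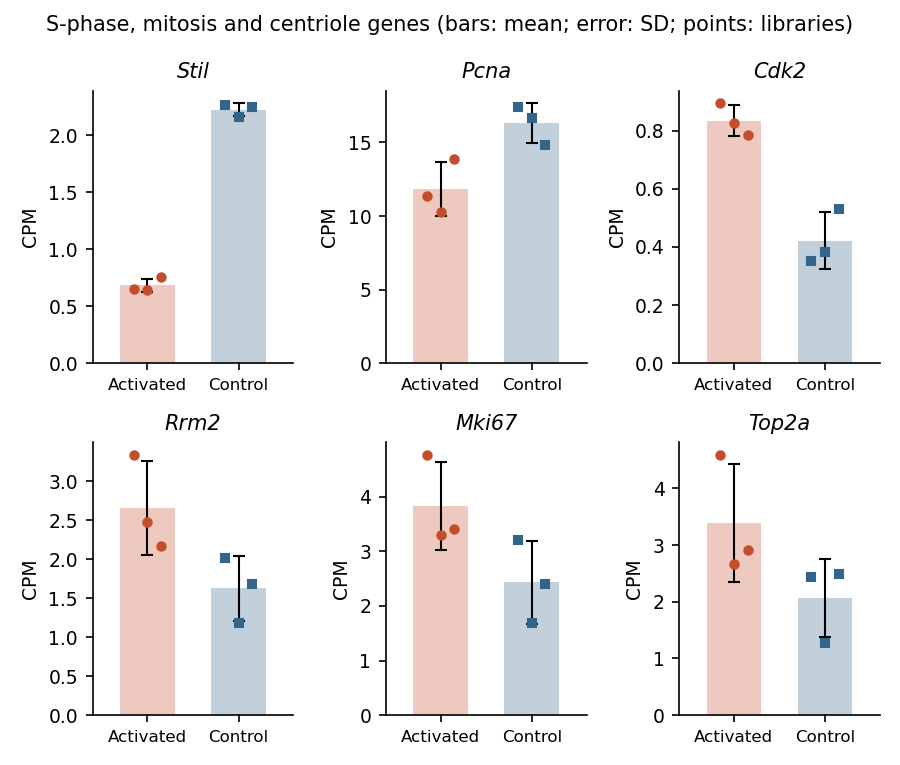
CPM of Stil, Pcna, Cdk2, Rrm2, Mki67 and Top2a in libraries labelled Activated (left of each panel) and labelled Control (right), with each library as a point, the mean of 3 as a bar from 0 and the SD as the error bar. The groups do not overlap in any panel, with a wide gap for Stil and narrow gaps for Rrm2, Mki67 and Top2a.

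Promoter sequences are shown for 4 genes that passed, 2 lower (Stil, Pcna) and 2 higher (Cdk2, Mki67), to set the elements known from cell cycle promoters beside the measured changes. They are RefSeq sequences on GRCm38.p6, from 250 bases before to 50 bases after the annotated start, written 5′ to 3′ on the gene's strand. Capitals mark matches on either strand to CCAAT (the NF-Y box), TTTGAA (the CHR element bound by the DREAM complex), 4 forms of the E2F site (TTTCCCGC, TTTGGCGC, TTTCGCGC and TTTGCCGC) and TGACG (the core of the cAMP response element). No match overlaps another in these 4 windows.
Stil, chr4:114999868-115000167, plus strand: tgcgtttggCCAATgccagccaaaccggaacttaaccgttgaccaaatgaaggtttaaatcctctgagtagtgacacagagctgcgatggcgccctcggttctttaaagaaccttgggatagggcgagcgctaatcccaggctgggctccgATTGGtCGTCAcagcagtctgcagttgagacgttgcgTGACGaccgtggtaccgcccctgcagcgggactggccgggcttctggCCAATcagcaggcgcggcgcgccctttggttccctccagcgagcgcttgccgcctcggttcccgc
Pcna, chr2:132253131-132253430, minus strand: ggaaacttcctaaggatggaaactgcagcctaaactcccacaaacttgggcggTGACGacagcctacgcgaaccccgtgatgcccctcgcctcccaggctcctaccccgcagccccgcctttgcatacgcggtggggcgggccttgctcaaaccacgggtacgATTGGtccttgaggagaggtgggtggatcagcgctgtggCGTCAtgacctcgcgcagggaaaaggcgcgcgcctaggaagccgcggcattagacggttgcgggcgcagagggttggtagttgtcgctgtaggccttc
Cdk2, chr10:128705002-128705301, minus strand: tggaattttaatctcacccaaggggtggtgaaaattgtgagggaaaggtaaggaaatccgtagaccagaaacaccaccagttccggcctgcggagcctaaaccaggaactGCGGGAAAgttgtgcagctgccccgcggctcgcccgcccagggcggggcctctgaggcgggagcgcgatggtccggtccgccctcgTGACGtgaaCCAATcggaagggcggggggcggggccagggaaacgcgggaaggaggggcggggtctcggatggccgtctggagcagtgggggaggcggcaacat
Mki67, chr7:135716330-135716629, minus strand: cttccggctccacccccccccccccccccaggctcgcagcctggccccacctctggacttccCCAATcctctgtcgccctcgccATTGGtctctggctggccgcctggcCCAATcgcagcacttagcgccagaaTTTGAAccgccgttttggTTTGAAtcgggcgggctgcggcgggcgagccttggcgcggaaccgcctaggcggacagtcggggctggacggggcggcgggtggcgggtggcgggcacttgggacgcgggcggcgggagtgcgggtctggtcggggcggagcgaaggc
The Stil window held 3 CCAAT matches, starting 241, 99 and 15 bases before the start, and 2 TGACG matches, 93 and 62 bases before it. Pcna held 1 CCAAT match and 2 TGACG matches. Cdk2 held 1 E2F match 140 bases before the start, 1 TGACG match and 1 CCAAT match. Mki67 held 3 CCAAT and 2 TTTGAA matches and none of the others.

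Across the genes, CCAAT, the E2F forms and TTTGAA were more frequent than among tested genes, while TGACG was near their share. The table held a promoter for 28 of the 35 genes; Ccnd1, Ccnd2, Ccna2, Mcm4, Gins2, Aurkb and Tpx2 were not matched. CCAAT was found in 23 of the 28 (82.1%), against 41.1% of all 27025 genes in the table and 42.9% of the 11682 tested genes in it. An E2F form was found in 7 (25.0%), which were Cdk1, Cdk2, Cdc6, Mcm3, Mcm5, Mcm6 and Mcm7, against 2.61% of all genes and 4.50% of tested genes. TTTGAA was found in 11 (39.3%), against 20.2% of all genes and 14.2% of tested genes. TGACG was found in 11 (39.3%), against 23.1% of all genes and 34.1% of tested genes. Base composition goes with such counts, and the median GC content was 58.7% in the 28 promoters and 60.7% in those of tested genes. Of the 7 genes with an E2F form, Cdk2 was called, on 9 to 25 reads per library, and the other 6 did not pass. Among all genes tested 36.8% passed. A link between these forms and the calls was not tested.

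Regulators above these genes did not share one direction. Of 22 genes tested of 23 listed for RB, E2F, the DREAM complex and the MYBL and FOXM1 factors, 1 was higher and 5 were lower. The shares were 4.55% and 22.7%, against 16.2% and 20.6% of all genes tested. The median log2 fold change of the list was −0.20. The lower ones were led by E2f3, an activating E2F factor (−0.36), Rbbp4, a histone-binding subunit of DREAM (−0.25), and Myc, which promotes growth and division (−0.46). Mybl1, a MYB family factor, was higher (0.44), but not after an offset for transcript length and GC content (0.25; edgeR adjusted p = 0.193). Without Activated replicate 3 the list had 2 higher genes. E2f3 and Rbbp4 turned to 0.04 and 0.15 under the neuron marker scaling. Of 22 genes of the DNA damage checkpoint and p53 response, which AraC can set off, all tested, 4 were higher and 4 lower. That is 18.2% each, near the 16.2% higher and 20.6% lower of all genes tested. Plk2, a polo-like kinase that neurons also induce with activity, had 133, 130 and 152 CPM in libraries labelled Activated, against 263, 255 and 263 CPM in libraries labelled Control (−0.91 ± 0.07, SE, with adjusted p = 2.94e-06 in edgeR). Btg2, an antiproliferative gene of early responses, was also lower (−0.48). Ccng1, the p53 target cyclin G1, and Atr, the replication stress kinase gene, were higher (0.42 and 0.35).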

How the data were processed

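Total RNA of 6 libraries (3 labelled Activated, 3 labelled Control) was depleted of ribosomal RNA and sequenced as strand-specific read pairs, per the labels' protocols. The submitters' processing notes name STAR 2.5.2b and mm10; the annotation release and the settings are not given in the sources used here. The deposited files hold raw counts per gene, and the reverse-strand column was used, since the other strand held 4.05 to 4.29% of gene reads. Over the exons of 9 of the 35 genes the other strand held more than 10% of reads. Besides Cdk2, Cdk4, Ccna2, Gins2 and Mki67, these were Prc1 (47.2%), Mcm7 (35.2%), Aurka (24.7%) and Aurkb (11.3%). Lines naming no gene took 42.3 to 50.7% of all reads and were left out. GENCODE M21 gave names and coordinates for 55144 of 55385 identifiers. The function filterByExpr removed low genes (10 reads as minimum count, 15 as minimum total). Libraries were scaled by TMM and groups compared in R 4.3.3 with edgeR 4.0.16 (quasi-likelihood), with no other term and Benjamini-Hochberg adjustment over all 18132 genes. Each standard error is the size of the log2 change divided by the root of its F value. The procedure was also run on simulated counts, and no result above rests on that run. Replicates differed by more than sampling noise (chi-square per degree of freedom 4.82 to 13.1). Intervals on few reads cover the spread of these libraries only. Plots used matplotlib 3.10.9.

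The genes, the further lists and the tests were chosen with earlier results of these data known. The text accounts for all 35 genes and names the 4 genes with the smallest p past the threshold in each further list, and the neighbours of Stil. Ccnd3, Cdkn1a, Cdkn1c, Cdkn2a, Cdkn2c, Cdkn3 and the genes that bear on the labels or mark cell types were picked after their values were seen. The alternatives used scaling by total counts, by neuron markers or by size factors of DESeq2 1.42.0, its Wald test, no filter or one of 1 CPM in 3 libraries, a block for replicate number, unstranded counts, each library left out, and an offset for transcript length and GC content (natural splines with 4 degrees of freedom), added after the data were seen.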

Additional observations from a re-analysis of the deposited data

How the results depend on the processing

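Of 34 genes tested, 14 kept their call or lack of one, among them Ccnd1, Ccnd2 and Stil, in each of the 15 alternatives that gave them a value. The count of higher genes, 5, was 3 with total counts only, 3 in unstranded counts, 19 under the neuron marker scaling, and 2 to 8 with each library left out. The count of lower genes, 3, was 1 under the neuron marker scaling and 2 to 4 with each library left out. The median log2 fold change of 0.138 was 0.545 under the neuron marker scaling and 0.11 to 0.308 with each library left out. That scaling, built on a list that was itself mostly lower in the libraries labelled Activated, raised the median of all tested genes as well (0.445 against 0.043). Of the 14 cell cycle genes below 0, it put 12 above 0 (0.046 to 0.391), all but Pcna and Stil. Among the genes named in the text, those that changed sign and passed the test in either scaling were Cdk4 (0.141), Rrm1 (0.293), Cep120 (0.077), Rrm2b (0.052), Rpa1 (0.116), E2f3 (0.04), Rbbp4 (0.152) and Bub3 (0.047). Under it the further lists had 8 to 13 higher genes each and 0 or 1 lower. With total counts only, 68.7% of all called genes were lower, against 55.9% with TMM. Same-numbered libraries of the 2 groups did not deviate together (correlations −0.014, −0.182 and −0.215 for numbers 1 to 3). Activated replicate 3 and Control replicate 2 had the highest correlation, 0.21. Deviations within a group of 3 libraries sum to 0, so these values cannot tell whether libraries shared a culture or batch. With the replicate number as a block 5 genes were higher and 2 lower. Cdk2 (edgeR adjusted p = 0.0589) and Cdk4 (0.0617) then lost their calls while Top2a (0.0351) gained one. The 17 tested genes with fewer than 30 reads in at least 1 library had standard errors of 0.223 (Stil) to 0.397 (Cdc6), so small changes in them were not detectable at this depth. The causes of these shifts were not tested.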
